A study of Mus musculus with 50 samples.

Results

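Secretory-high hepatocytes were taken as segmented liver cells in which transcripts of Ttr, Gc, Apoa1, Arg1, Fgg and Vtn together made up at least 12% of the gene counts of the cell. Members also had at least 20 gene counts, an area of at least 10000 square pixels (hepatocyte-sized) and less than 3% of counts from Glul, so that pericentral hepatocytes were kept out. Members were thus selected on the measured counts of these 7 genes, the total count and the cell area. This rule found 2402 members, 4.61% of 52132 segmented cells, 4.81% of the 49917 cells with at least 20 counts and 8.74% of the 27478 hepatocyte-sized cells. The cells came from an imaging experiment (CosMx) in which fluorescent probes for 1000 gene targets and 10 negative probes were decoded as single spots on 5 µm sections of fixed mouse liver. Control mice were wild-type C57BL/6 mice that received AAV8-Tbg-Cre, and HIRA KO mice were HIRA fl/fl on the same background and received the same virus. Cre was thus driven by the hepatocyte promoter Tbg in both groups, the injection was given at 6 months of age, and livers were collected 12 months later at 18 months. HIRA is a chaperone that deposits the histone variant H3.3, and its transcript was not among the targets, so the deletion was not checked in these cells. The 50 fields of view formed 6 tissue areas, 3 per genotype, and these areas served as replicates. The genotypes lay on opposite sides of the slide, so that position and genotype cannot be told apart. The labels name no mouse, and the study's methods speak of 3 biological replicates.

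Hepatocytes make most of the proteins of blood plasma and release them through the endoplasmic reticulum and the Golgi apparatus. Ttr encodes transthyretin, the carrier of thyroxine and of retinol-binding protein, and Gc encodes the vitamin D-binding protein. Apoa1 encodes the main protein of high-density lipoprotein, Fgg the gamma chain of fibrinogen, and Vtn vitronectin, an adhesive plasma protein. Arg1, the urea cycle enzyme arginase, is a cytosolic enzyme and is not secreted. Liver function is zoned between portal and central veins, and Glul, which encodes glutamine synthetase, marks the hepatocytes next to the central vein.

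The name of these cells was first checked against the makeup of their score. Ttr had the highest count of the 6 genes, ties included, in 99.1% of members, and Ttr alone passed 12% of counts in 886 members (36.9%). The other 5 genes passed 12% without Ttr in 13 members (0.541%). In the other hepatocyte-sized cells with low Glul no gene of the 6 exceeded Ttr in 80.2% to 83.2% in control areas and 85.3% to 96.7% in HIRA KO areas. These percentages include ties and cells with no count of any of the 6, and are upper limits. In control area 1, Ttr was detected in 77.6% of the other cells. Ttr made up most of the 6-gene counts of the other cells as well, so its lead in the summed score was a trait that members shared with them. Members are thus hepatocyte-sized cells in which Ttr makes up most of a high score. Transcripts of all 6 genes were found together in 578 members (24.1%), and 6 members had no Ttr count. Ttr contributed 58.1%, 59.8% and 61.0% of the 6-gene counts of members in control areas 1, 2 and 3, and 66.1%, 75.3% and 73.0% in HIRA KO areas 1, 2 and 3. The share of the score taken by Ttr did not overlap between the groups of members. In the other cells it was 54.2% to 56.2% in control areas and 54.8% to 69.7% in HIRA KO areas, which overlapped.

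Members were found mostly in HIRA KO livers, which held 2200 of them (91.6%), against 202 in control. The control areas held 41, 64 and 97 members, or 0.501%, 0.937% and 1.37% of cells with at least 20 counts, and the HIRA KO areas held 327, 1025 and 848 members, or 3.21%, 10.1% and 11.3%. The exact (Clopper-Pearson) 95% intervals, which cover counting error only, ran from 0.360% to 0.679% in the lowest control area and from 2.88% to 3.57% in the lowest HIRA KO area. No area of one group overlapped the other. The mean over areas was 8.20% ± 4.36 in HIRA KO against 0.938% ± 0.437 in control (SD over 3 areas each). Of hepatocyte-sized cells, members made up 15.9% ± 7.44 in HIRA KO against 1.55% ± 0.839 in control (SD over 3 areas each). These shares are a description with no test, since the rule was set on the same values. With Ttr alone at 12% as the score, 3.11% ± 2.24 of HIRA KO cells and 0.130% ± 0.145 of control cells passed (SD over 3 areas each), without overlap. With the score changed to the other 5 genes and its minimum lowered to 6%, 0.868%, 1.04% and 1.57% of cells passed in the control areas and 2.16%, 1.56% and 1.60% in the HIRA KO areas, which overlapped. The score of hepatocyte-sized cells with low Glul was also higher in HIRA KO at its median, with 2.94%, 3.48% and 3.88% of counts in the control areas and 5.24%, 6.19% and 8.33% in the HIRA KO areas.

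**Figure D1:**
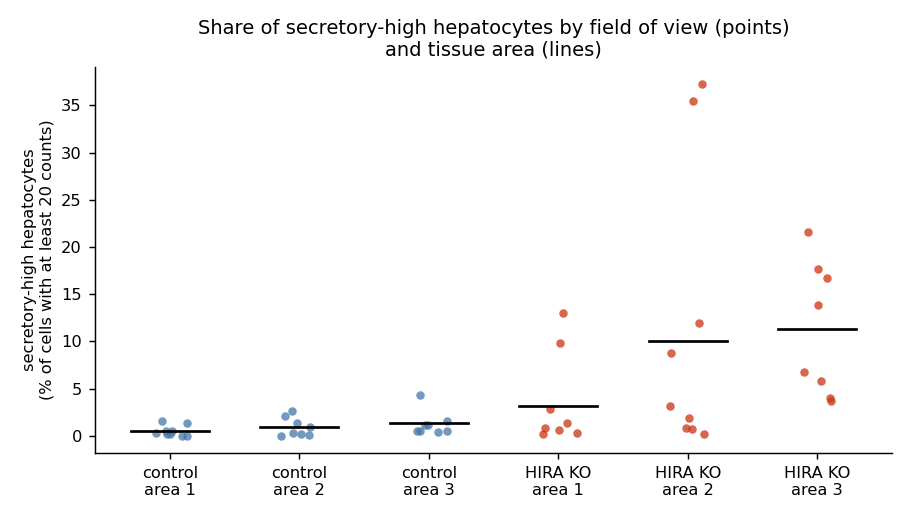
Secretory-high hepatocytes as a percentage of cells with at least 20 counts, for each field of view (points) and each tissue area (black lines). Control areas stand at 0.501% to 1.37% and HIRA KO areas at 3.21% to 11.3%, and single HIRA KO fields range from 0.152% to 37.3%.

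Within a liver the cells were unevenly spread. In control, 3 of 25 fields of view held no member and the median field held 4, whereas in HIRA KO all 25 fields held members, with a median of 45. The share per field ran from 0% to 4.35% in control and from 0.152% to 37.3% in HIRA KO, so that the lowest HIRA KO fields lay inside the control range. In HIRA KO area 2, the adjoining fields 33 and 34 held 360 and 355 of its 1025 members, which was 58.6% and 59.97% of their hepatocyte-sized cells. In HIRA KO area 1, fields 11 and 17 held 103 and 145 of 327 members. HIRA KO area 3 was more even, and its share per field ran from 3.72% to 21.6%. Without the field of the highest share in each area, the means were 6.29% ± 3.88 for HIRA KO and 0.631% ± 0.223 for control (SD over 3 areas each), and the groups still did not overlap.

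**Figure D2:**
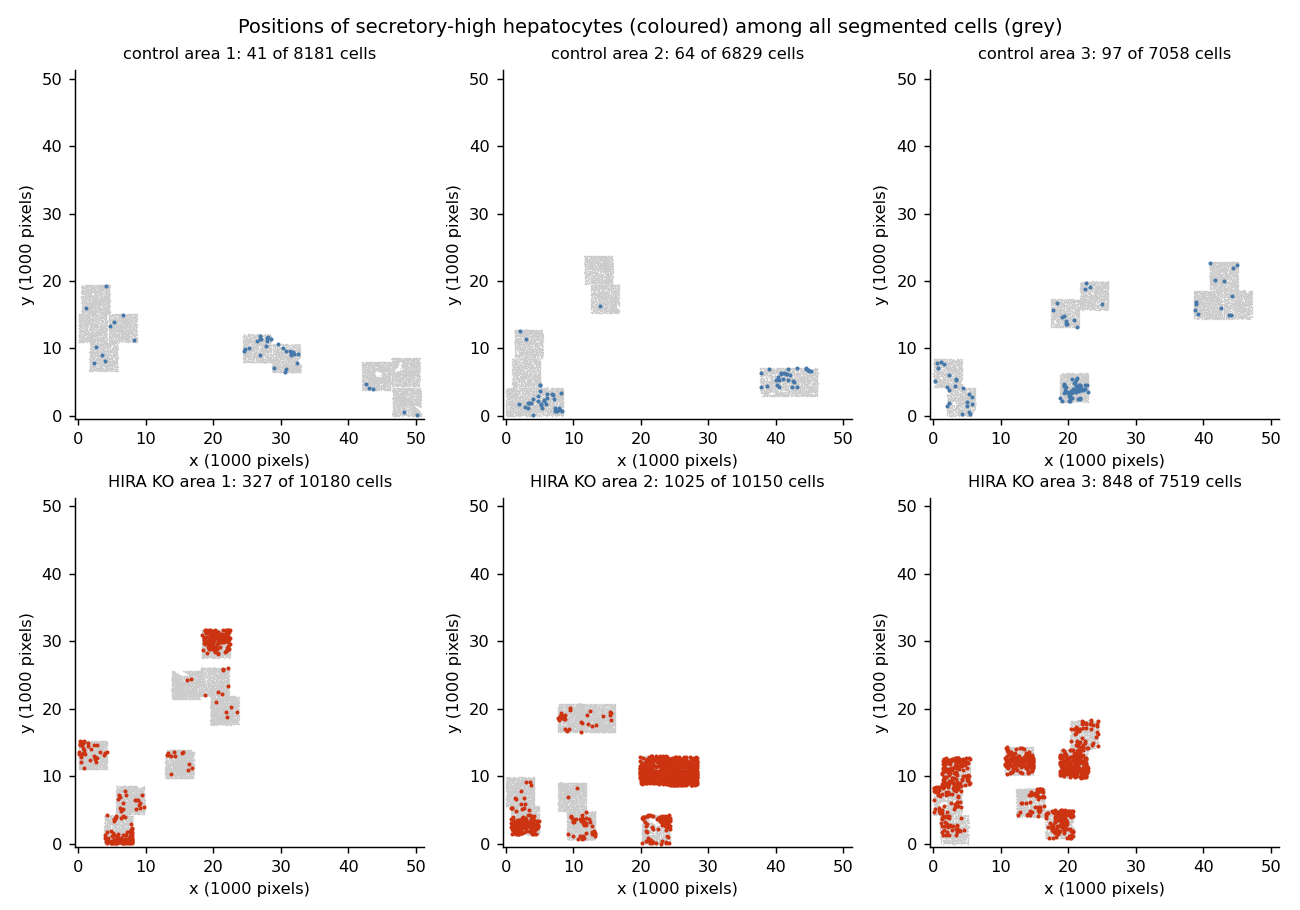
Positions of secretory-high hepatocytes (coloured) among segmented cells (grey) in the 6 tissue areas, with both axes in 1000 pixels from the lower left of each area. Members gather in patches, of which the densest are the pair of adjoining fields with 360 and 355 members in HIRA KO area 2.

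Members also lay close to one another. Among the 20 cells nearest to a member, members made up on average 1.71%, 4.06% and 4.48% in the control areas and 17.9%, 33.1% and 21.5% in the HIRA KO areas. These values were 1.90 to 5.56 times the share of members in the whole area. They also exceeded the share of members in the member's own field, which averaged 1.05%, 1.83% and 2.71% in control and 9.28%, 27.9% and 15.3% in HIRA KO, so members lay closer together than their share of the field. Cells of at least 10000 square pixels with 3% or more Glul numbered 454 in all, and distances to the nearest one in the same field could be taken only where the field held one. In control areas 1, 2 and 3 this was so for 36 of 41, 64 of 64 and 97 of 97 members, with median distances of 1061, 1507 and 1059.7 pixels, against 1395, 1542 and 980.4 pixels for other hepatocyte-sized cells with low Glul. In HIRA KO areas 1 and 3 it was so for 315 of 327 and 848 of 848 members, with medians of 1606 and 1645 pixels, against 2328 and 1403 pixels for the other cells. In HIRA KO area 2 only 623 of 1025 members had such a cell in their field, since field 33 held none, and the 355 members of field 34 were measured to the only one there, so no distance is given for that area. Members were nearer to Glul-high cells than the other cells in control areas 1 and 2, and farther in control area 3 and HIRA KO area 3. They were also nearer in HIRA KO area 1, but fields 11, 12 and 17 there, with 103, 35 and 145 members, held 1 Glul-high cell each. The distances of those members thus rest on single cells.

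The number of counts per cell bears on a share of counts, since a cell of few counts passes 12% with few transcripts. Control members were shallow, with median counts of 60, 116 and 66 per cell in the control areas, against 155, 227 and 204 in the HIRA KO areas. Under 50 counts lay 27.7% of control members and 1% of HIRA KO members, and under 100 counts 61.4% and 10.9%. Other hepatocyte-sized cells had medians of 120.5, 181 and 125 counts in control and of 167, 202 and 234 in HIRA KO. At matched depth the groups differed in the same way. Among cells of 100 to under 200 counts, members made up 0.466%, 1.10% and 0.910% of hepatocyte-sized cells in control and 6.81%, 16.8% and 23.9% in HIRA KO. Among cells of 200 to under 400 counts they were 0.486%, 0.748% and 1.16% in control areas and 6.47%, 20.4% and 18.4% in HIRA KO. Only among cells of 20 to under 50 counts did the groups overlap, with 12.9% in control area 3 above 11.8% in HIRA KO area 3, which rested on 2 of 17 cells. With each cell thinned to 60 counts the shares were 10.3% ± 4.80 for HIRA KO and 1.35% ± 0.664 for control (SD over 3 areas each). This left out 25.3% of control cells and 20.5% of HIRA KO cells as too shallow, and among hepatocyte-sized cells 9.24% and 1.63%.

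**Figure D3:**
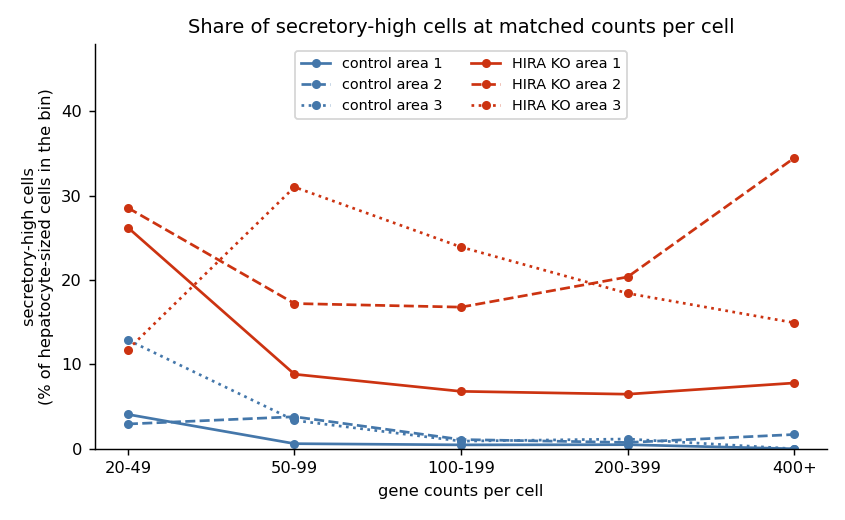
Secretory-high cells as a percentage of hepatocyte-sized cells (vertical axis) in bins of gene counts per cell (horizontal axis), with 1 line per tissue area. From 50 counts upward all 3 HIRA KO lines lie above all 3 control lines.

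The threshold cut through a continuous range. Between the threshold and 1 percentage point above it lay 500 members, 60 of control and 440 of HIRA KO, and in the percentage point just below it lay 644 cells, 107 of control and 537 of HIRA KO. Their median Ttr counts were 17 and 15 per cell. A share of 20% or more was reached by 314 members, of which 7 were of control, and the highest share was 34.9%. The area limit left out 1290 smaller cells that met the other criteria, 170 of control and 1120 of HIRA KO. A further 48 cells had 3% or more Glul and were left out for that alone, 13 of control and 35 of HIRA KO.

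The levels of the score genes themselves followed from the rule and are given as a description. Values are CPM, the counts of a gene summed over the cells of an area and scaled to one common total of gene counts, and levels of different genes are not compared because probes differ in efficiency. Ttr in members was 77673, 86075 and 96152 CPM in control and 101777, 126272 and 108756 CPM in HIRA KO. Ttr in the other hepatocyte-sized cells was 17829, 21166 and 22442 CPM in control and 26728, 35587 and 48733 CPM in HIRA KO. Transthyretin transcripts thus stood higher in HIRA KO areas in both sets of cells, without overlap. Gc was 20011, 17863 and 14298 CPM in control members and 18017, 16377 and 19117 CPM in HIRA KO members, which overlapped. In other cells Gc was 8599 ± 1302 CPM in HIRA KO against 5450 ± 73.8 CPM in control (SD over 3 areas each), without overlap.

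Apoa1 and Arg1 ran the other way among members. Apoa1 was 13165, 17027 and 15727 CPM in control members and 11216, 6967 and 6775 CPM in HIRA KO members, so every HIRA KO area was below every control area. Arg1 was 10005, 9715 and 15608 CPM in control members and 7631, 7233 and 3255 CPM in HIRA KO members, again without overlap. In other cells both genes overlapped, Apoa1 at 3704 ± 613 CPM in control and 3626 ± 897 CPM in HIRA KO and Arg1 at 2837 ± 243 and 2584 ± 586 CPM (SD over 3 areas each). Fgg was 9584 ± 2037 CPM in control members and 7146 ± 2073 CPM in HIRA KO members (SD over 3 areas each), which overlapped. Vtn ran higher in HIRA KO members, at 4386 ± 562 CPM in control and 5332 ± 462 CPM in HIRA KO (SD over 3 areas each). The highest control area, at 5014 CPM, lay just below the lowest HIRA KO area, at 5034 CPM. In other cells Vtn was 1746 ± 365 CPM in control and 2674 ± 263 CPM in HIRA KO (SD over 3 areas each), also without overlap. The counts behind these levels were small in control, where Apoa1 rested on 50, 163 and 132 transcripts and Arg1 on 38, 93 and 131. Scaled to the counts outside the rule, Apoa1 was 15230, 19917 and 18694 in control members and 13275, 8384 and 7975 in HIRA KO members. Arg1 was 11575, 11364 and 18553 in control members and 9031, 8704 and 3832 in HIRA KO members. Neither gene overlapped on this scale. The cells were still selected on the summed score, of which Ttr took a larger share in HIRA KO members. Rescaling does not undo that selection, so it is no check on the lower Apoa1 and Arg1. The part of the rule in these differences was not tested.

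**Figure D4:**
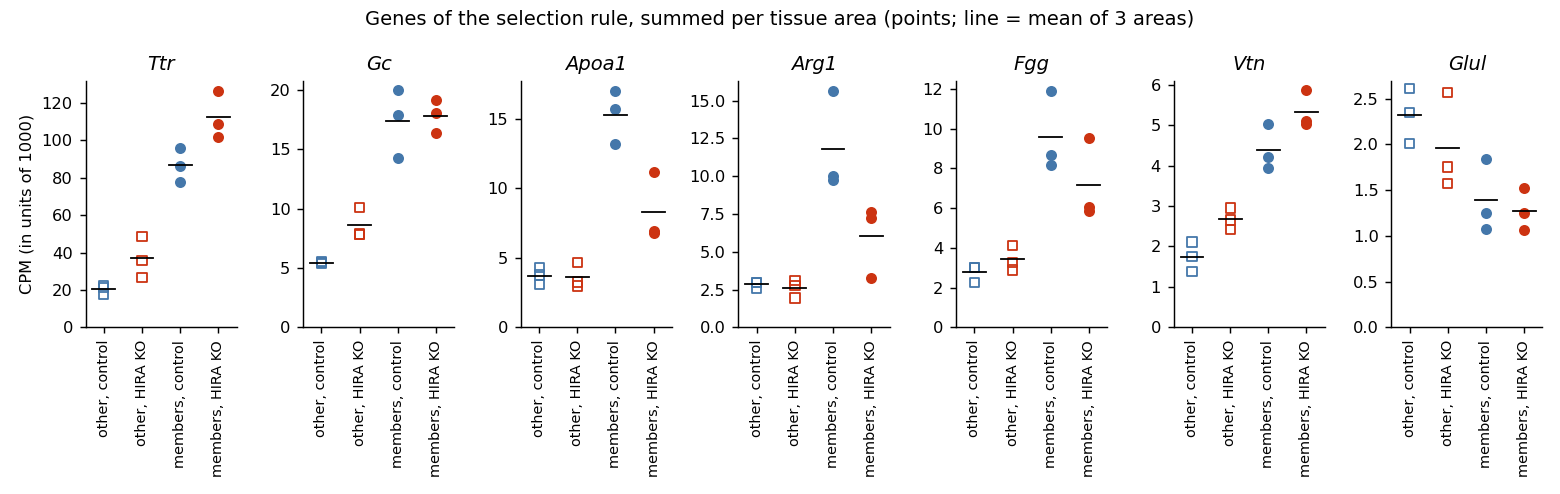
Levels of the 7 genes of the rule in CPM (in units of 1000), summed per tissue area, in members (filled circles) and other hepatocyte-sized cells with low Glul (open squares), with lines at the mean of 3 areas and a separate axis from 0 for each gene. Ttr is higher in HIRA KO areas in both sets of cells. Apoa1 and Arg1 are lower in every HIRA KO area among members and overlap between the genotypes in the other cells. Members were selected on the summed score, so their levels of these genes followed from the rule.

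What the members shared beyond the score was described with the 993 other genes, each as a share of the counts outside the rule. Of these, 72 were above the highest negative probe in every area and in both sets of cells, and 27 of the 72 (37.5%) were higher in members than in other hepatocyte-sized cells in all 6 areas, against 5 (6.94%) lower in all 6. No test was made of this contrast because the rule selected the cells. The median log2 ratio over the 72 genes was 0.27. Secreted plasma proteins outside the rule stood higher, with 6 of 7 measurable genes above in all 6 areas and a median log2 ratio of 0.69. Apoc1, an apolipoprotein of triglyceride-rich particles, had a median log2 ratio of 1.28, Apoe, which carries lipoprotein remnants to their receptors, 0.69, and Selenop, which transports selenium, 0.87. Azgp1, a secreted glycoprotein that acts on fat, was at 0.93 and Serpina1a, an inhibitor of elastase, at 0.48. Hepatocyte markers that the rule did not use thus also stood higher in members, which were selected on other hepatocyte genes. This contrast with other hepatocyte-sized cells does not test the hepatocyte label.

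Of the antioxidant genes, 4 of 4 measurable members stood above in all 6 areas, with a median log2 ratio of 0.93, Selenop being counted in this list as well as among the secreted proteins. Gpx1, a glutathione peroxidase, was the highest of all named genes at 1.29, with 17362, 24071 and 20252 CPM over the counts outside the rule in control members and 18147, 23424 and 21941 in HIRA KO members. In other cells Gpx1 was 6093, 9406 and 7990 on that scale in control and 8599, 9875 and 15261 in HIRA KO. The members of both groups overlapped in Gpx1, and all 6 areas of members were above all 6 areas of other cells. Sod1, the cytosolic superoxide dismutase, had a median log2 ratio of 0.99. Of 3 measurable genes of ribosome and ATP synthase, 2 were higher in all 6 areas, the subunits Atp5b at 1.12 and Atp5e at 0.79 of the mitochondrial ATP synthase. Pigr, which carries IgA across hepatocytes and biliary cells, was at 0.71, H2-Q10, a class I molecule secreted by the liver, at 0.70, and Ldha, a lactate dehydrogenase, at 0.70. Glud1, the mitochondrial glutamate dehydrogenase and the only measurable gene of the nitrogen list, was at 0.65 and the cytosolic chaperone Hsp90ab1 at 0.54, both higher in all 6 areas.

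Of the 5 genes lower in members in all 6 areas, 3 are genes of macrophages and other immune cells. Cd74, the invariant chain of MHC class II, had a median log2 ratio of -1.29 and rested on only 6, 12 and 13 counts in control members and 132, 299 and 437 in HIRA KO members. C1qb, a complement component made by Kupffer cells, was at -0.62, and Fcer1g, a signalling chain of Fc receptors, at -0.52. Il15ra, a cytokine receptor chain, was at -0.51 and Tyms, thymidylate synthase, at -0.28. The 71 panel markers of other cell types together made up 5.71%, 4.62% and 4.97% of counts of control members and 4.71%, 4.52% and 5.18% of HIRA KO members. In other hepatocyte-sized cells they made up 6.24% to 7.70% in control and 7.07% to 8.37% in HIRA KO, so members were lower in all 6 areas. Most of these markers had counts above 0 in members, with 1 to 6 of the 71 at 0 in control areas and 1 in each HIRA KO area. A count above 0 need not exceed background. The highest negative probe had 4, 11 and 8 counts in control members and 40, 156 and 142 in HIRA KO members. As a share of counts outside the rule these markers were also lower in members in all 6 areas, at 5.40% to 6.61% against 6.5% to 9.03% in the other cells.

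**Figure D5:**
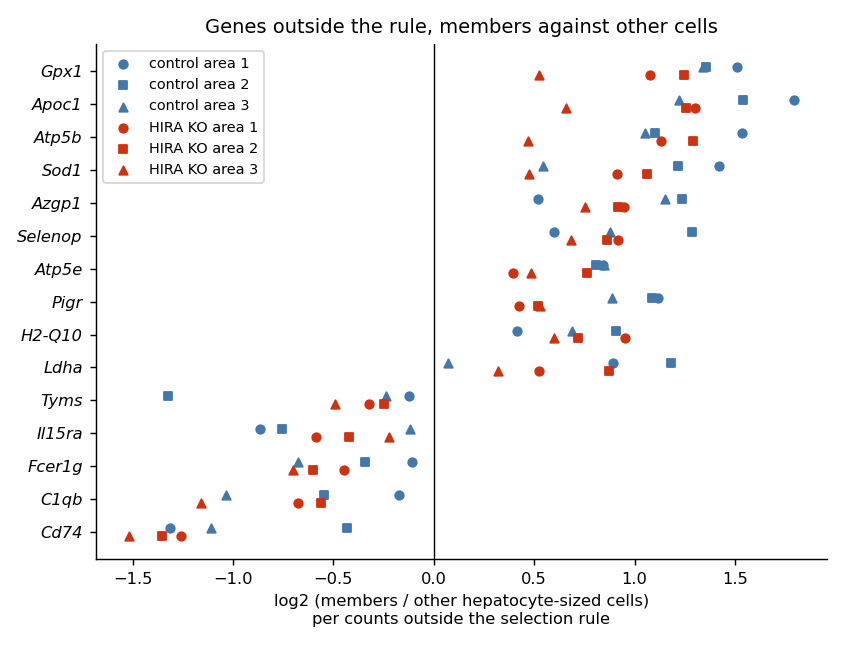
Log2 ratio of members over other hepatocyte-sized cells (horizontal axis, per counts outside the rule) for genes that stood on the same side in all 6 areas, with 1 symbol per tissue area. Gpx1 and Apoc1 have the highest medians, at 1.29 and 1.28, and Cd74 the lowest, at -1.29.

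Members also differed from the other cells in shape and staining. The median nucleus area over members was 2468, 2684 and 3233 square pixels in control areas and 3552, 3996 and 3896 in HIRA KO areas, while for other cells it ran from 4132 to 4320 in control and from 4432 to 4692 in HIRA KO. The nucleus was thus smaller in members in all 6 areas, although 4.88% or less of members in any area had no nucleus in the section. Of the counts outside the rule, 26.1% to 36.1% were nuclear in control members and 34.9% to 38.9% in HIRA KO members, against 43.3% to 52.8% in the other cells of any area. Mean DAPI and mean CD45 intensity were likewise lower in members in all 6 areas. The part of these differences in the score was not tested.

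Between genotypes, 10 measures that the rule did not use were compared within members, and none could pass 0.05 because 3 against 3 areas allow no p below 0.1. Nuclei of HIRA KO members measured 3815 ± 233 square pixels against 2795 ± 394 for control (SD over 3 areas each, two-sided exact permutation test, p = 0.1, adjusted p = 0.333). B2M intensity, a stain of MHC class I at the membrane, was 2180 ± 384 and 2919 ± 408 (exact permutation test, p = 0.1, adjusted p = 0.333), and CD45 intensity 594 ± 59.4 and 766 ± 77.2 (exact permutation test, p = 0.1, adjusted p = 0.333). All 3 measures were higher in every HIRA KO area than in any control area, but at a score of 15% the difference in B2M intensity was 302 in place of 739 with overlap between the groups (p = 0.5 by the same permutation test). The other hepatocyte-sized cells also had the larger nucleus area and CD45 intensity in every HIRA KO area (exact permutation test, p = 0.1 for each), and their B2M intensity overlapped (p = 0.2 by the same permutation test). The remaining 7 measures overlapped between the groups, with exact permutation p from 0.3 to 1. Among them, hepatocyte-sized cells made up 59.6% ± 2.28 of the 20 nearest cells of HIRA KO members and 66.1% ± 12.4 of those of control members (SD over 3 areas each), a difference of -6.45 percentage points that was -1.33 without control area 1 and -13.3 without control area 3. Markers of other cell types made up 6.99% ± 0.836 of the counts of those neighbours for HIRA KO and 6.96% ± 0.763 for control (SD over 3 areas each).

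To ask whether secretory-high cells of HIRA KO liver differed from those of control liver, counts of the members were summed per area. The sums held 3798, 9573 and 8393 gene counts in control and 56614, 259637 and 196321 in HIRA KO, so the control sums were far smaller. With edgeR's quasi-likelihood test and Benjamini-Hochberg adjustment, 0 of 937 genes outside the rule (0%) passed 0.05, with a lowest adjusted p of 0.444. The adjustment ran over all genes fitted, the 7 of the rule included, and Apoa1 and Arg1 were among those of low p. The levels of Apoa1 and Arg1 followed from the rule, and their ranks lowered the adjusted p of the genes outside it. Adjusted values over the genes outside the rule alone were not computed. At an unadjusted p under 0.05 there were 48 genes, 5.12% of those tested, and DESeq2 called 0 genes and had 37 at that level. The median standard error of a log2 fold change was 0.43. All 3 HIRA KO areas were above all control areas for 70 genes (7.47%) and below for 57 (6.08%).

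The genes of lowest unadjusted p, none of which was called, are given by their values. Epha7, an ephrin receptor, was 10.54, 11.10 and 10.95 log2 CPM in control members and 9.89, 9.89 and 10.002 in HIRA KO members, a log2 fold change of -1.02 ± 0.29 (SE, edgeR adjusted p = 0.444). Its control values rested on 6, 20 and 16 counts. Fasn, the fatty acid synthase, was 11.53, 10.48 and 10.85 log2 CPM in control and 10.10, 10.11 and 9.52 in HIRA KO, a log2 fold change of -1.0 ± 0.32 (SE, edgeR adjusted p = 0.444). Mt1, a metallothionein that binds zinc and copper, was 11.27, 11.81 and 11.69 log2 CPM in control and 11.17, 11.04 and 10.37 in HIRA KO, a log2 fold change of -0.79 ± 0.28 (SE, edgeR adjusted p = 0.676). These 3 genes did not overlap between the groups. Lower fitted values were also given by Mapk13, Birc3, Fzd5, S100a10, Eno1/b, Alcam and Cav1, with log2 fold changes from -0.96 to -0.66. Higher fitted values were led by Dhrs2, with 0, 2 and 4 counts in control and 53, 186 and 139 in HIRA KO and a log2 fold change of 1.48 ± 0.53 (SE, edgeR adjusted p = 0.676). Maf, a transcription factor, had 1, 4 and 3 counts in control and 44, 192 and 196 in HIRA KO, and Cxcr5, Gstp1/2, Itgb5, Arid5b, Thsd4, Tpt1, Dusp1 and Bag3 followed with log2 fold changes from 0.61 to 1.07. The highest negative probe had 4, 11 and 8 counts in the control members, so the control counts of Dhrs2 and Maf did not exceed it. Of the higher genes named here, only Gstp1/2 and Tpt1 exceeded it in every control area. Of the lower genes, Mapk13 with 5, 8 and 18 control counts, Fzd5 with 1, 14 and 11 and Alcam with 4, 15 and 14 did not exceed it in every control area. Fzd5 in control area 1, at 8.07 log2 CPM, lay below all HIRA KO areas, at 9.42 to 9.44.

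Of the 12 gene lists, none had a called member, and the median log2 fold change of the lists lay between -0.14 and 0.39, against 0.04 over all genes tested. Genes that did not overlap between the groups were few in each list and are to be read against the 7.47% and 6.08% of all genes above. Among 8 secreted plasma proteins, 1 was higher in every HIRA KO area (Igf1) and 1 lower (Apoc1), about that share. Apoc1 had a log2 fold change of -0.43 ± 0.25 and Selenop of 0.45 ± 0.27 (SE, edgeR adjusted p = 0.886 for both). The 6 antioxidant genes had a median of 0.03, and 1 of them, Mt1, was lower in every HIRA KO area and 1, Sod2, the mitochondrial superoxide dismutase, higher, at 0.69 ± 0.35 (SE, edgeR adjusted p = 0.886). Chaperones and endoplasmic reticulum stress genes, which serve secretion, had a median of 0.23 over 8 genes, with Xbp1, a regulator of secretory capacity, at 0.76 ± 0.39 and Hsp90b1, a chaperone of the endoplasmic reticulum, at 0.37 ± 0.29 (SE, edgeR adjusted p = 0.886 and 0.920). The acute-phase genes Saa1/2 and Crp were at 0.80 ± 0.50 and -0.27 ± 0.30 (SE, edgeR adjusted p = 0.886 and 0.940). The 17 interferon and antigen presentation genes had a median of 0.07, with 0 higher and 1 lower in every HIRA KO area. Of these, Mx1 was at -0.59 ± 0.36, H2-T23 at 0.61 ± 0.39 and H2-D1 at 0.57 ± 0.37 (SE, edgeR adjusted p = 0.886 for each), and all 3 overlapped. Of the 17 stress and growth arrest genes, 2 were higher in every HIRA KO area, Dusp1 and Gadd45b, at 0.79 ± 0.38 and 0.57 ± 0.40 (SE, edgeR adjusted p = 0.886 and 0.907). In control members Dusp1 had 3, 8 and 5 counts, Gadd45b 3, 7 and 4, and Sod2 4, 10 and 6. Saa1/2 had 4, 5 and 7 counts there and H2-T23 4, 6 and 5. None of these exceeded the highest negative probe, at 4, 11 and 8 counts in control areas 1, 2 and 3. Xbp1 with 1, 7 and 9 counts, H2-D1 with 3, 6 and 12, Mx1 with 1, 13 and 9 and Crp with 4, 19 and 15 did not exceed it in every control area.

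Whether the genotype difference was another one in members than in other hepatocyte-sized cells was tested as an interaction over the 12 sums of area and cell set. In edgeR 0 of 991 genes outside the rule (0%) passed, with a lowest adjusted p of 0.194 and 54 genes at an unadjusted p under 0.05, against 0 called and 33 genes at that level in DESeq2. For comparison, the same genotype test in the other hepatocyte-sized cells called 2 of 991 genes outside the rule (0.202%). The adjustment again included the 7 genes of the rule, of which Apoa1 and Arg1 had a lower p than any other gene. Since their levels followed from the rule, that order is no result, and their ranks lowered the adjusted p of the genes outside it. Outside the rule Epha7 had the lowest p, with a log2 fold change in members of -1.02 and in other cells of -0.02, and a difference of -1.04 ± 0.28 (SE, edgeR adjusted p = 0.194). For Mt1 the values were -0.79 in members and -0.04 in other cells, and the difference was -0.71 ± 0.24 (SE, edgeR adjusted p = 0.444). No gene outside the rule could thus be named as changed in secretory-high hepatocytes in particular by these tests.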

How the data were processed

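The authors deposited a table of raw counts, one value for each target in each segmented cell, as decoded and segmented by the platform. Per the file headers, a second table gives mean stain intensity, cell area and nucleus area, and the deposited transcript table gives another value, the compartment of each spot. The count and transcript tables differed in 0 cells. The study's methods normalized with Seurat and left out cells under 20 counts or over 5 times the geometric mean area, but the deposited values are unfiltered. Pixel size is not given in the sources used here.

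The members and gene lists were chosen with earlier results of these data known. Counts were summed per tissue area and cell set and tested with edgeR 4.0.16 (R 4.3.3, TMM, filterByExpr, quasi-likelihood test, Benjamini-Hochberg at 0.05), and per-area measures with exact permutation tests (scipy 1.17.1). Other hepatocyte-sized cells met the limits on counts, area and Glul but were under 12%. Alternatives used DESeq2 1.42.0 and limma 3.58.1. The scripts were tested on simulated data. Genes named are those of lowest p per direction and list with a mean count over the 6 areas above that of every negative probe. The deeper HIRA KO areas could pass this limit alone, so it does not place control counts above the negative probes. For members against other cells, genes named are those of largest median ratio on the same side in all 6 areas. Areas may stand for mice, which the labels do not name, so p-values measure the spread between areas. No doublet caller was run.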

Additional observations from a re-analysis of the deposited data

Results flagged for a closer look

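Median cell area went opposite ways in the genotypes. Members were smaller than other hepatocyte-sized cells in all 3 control areas, by a mean difference of -4962 square pixels, and larger in all 3 HIRA KO areas, by 569 square pixels. Members measured 17878, 19548 and 17604 square pixels in control and 19395, 21846 and 23308 in HIRA KO, against 22470, 23257 and 24189 and against 19384, 20239 and 23220 in the other cells. In HIRA KO area 1 the gap was 11 square pixels. Cell area was part of the rule, and the difference between genotypes was not tested.

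H2-K1, a class I MHC gene, was higher in members than in other cells in all 3 control areas, with a mean log2 ratio of 0.24, and lower in all 3 HIRA KO areas, with a mean of -0.17. The interaction in edgeR was -0.42 ± 0.25 (SE) with an adjusted p of 0.816, so the difference did not pass.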

How the results depend on the processing

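The share of members stayed without overlap between the groups, with a difference of HIRA KO minus control of 7.26 percentage points, under all alternatives to the limits on score, counts, area and depth and without any single tissue area, with 3.71 at a score of 15%, 10.6 at 10%, 11.1 at 100 counts or more, 2.98 for Ttr alone, and 5.72 to 9.75 without single areas. It was 14.3 percentage points with hepatocyte-sized cells as the denominator, and 0.611, with overlap, when Ttr was left out and the limit was also lowered to 6%, an alternative chosen after seeing the data, as were at least 100 counts, Ttr alone, and leaving out the highest field. Gene calls within members were 0 under all 16 alternatives, among them DESeq2, library size only, no filter, the slide row as a block and leaving out any area, with 2 to 61 genes at an unadjusted p under 0.05. The fewest genes, 34, could be tested with limma-voom on fields of view, and 210 to 991 without single areas. The interaction gave 0 calls under all 11 alternatives. The labels pair no samples across the groups, and with the slide row as a block, each row holding 1 area of each group, 44 genes had an unadjusted p under 0.05. Of the 20 genes named by p, Cav1 alone changed sign, to 0.15 at a score of 15%, and the other 279 values kept theirs. A gene filtered out under an alternative gave no value there, so not every gene was followed through every alternative.

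Several differences in measures were near 0 and changed sign. Without single areas, DAPI intensity (55.3) ran from -184.8 to 392, marker counts of other types in members (-0.298 percentage points) from -0.539 to 0.00877, and those of their neighbours (0.0298) from -0.374 to 0.464. At a score of 15% the neighbours' value was -0.0877 and the nuclear share of counts, 5.58 percentage points higher in HIRA KO at 12%, was -0.569. The causes were not tested. The control areas held 3798 to 9573 member counts, and whether this depth set the number of calls was not tested.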
